A study of Mus musculus with 6 samples.

Results

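The change in gene expression over 24 h in differentiation medium was compared between C2AS12 myoblasts that the submitters describe as surviving and 2 treatments of the same cells that they describe as dying by apoptosis. C2AS12 is a mouse myoblast line of C2 origin, and its total RNA was measured on 6 oligonucleotide arrays. All cells had been infected with a recombinant adenovirus for p300. The arrays held cells with Adp300wt (wild-type p300, surviving), cells with Adp300wt and doxycycline (dying) and cells with Adp300mut (mutant p300, dying), each at 0 h, before the low-serum medium was added, and at 24 h in it. The submitters call the 6 arrays biological replicates, but the labels give 1 array for each treatment and time, so no group of the study had replicate error. For each probe set, the log2 ratio of the 24 h over the 0 h signal in wild type was set against the same ratio in doxycycline and, separately, in mutant cells. A gene was taken as a member where both differences had the same sign and reached 1 on the log2 scale, which is 2-fold. Of 4822 genes tested, 61 met this rule. The wild-type change was the higher in 35 genes (0.726% of the genes tested) and the lower in 26 (0.539%).

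p300 is a histone acetyltransferase and coactivator that many transcription factors recruit, among them MyoD in muscle cells and the AP-1, NF-kB and p53 factors. Myoblasts moved to low-serum medium leave the cell cycle and switch on muscle genes, and a share of the cells dies by apoptosis in the process. The labels state neither which p300 residues were mutated nor what doxycycline does in these cells, and no array was taken of uninfected cells or of cells kept in growth medium for 24 h. Treatment, culture and infection therefore cannot be told apart, and neither can medium and time in culture. The RNA came from bulk cultures, so fewer cells of a kind and less RNA per cell cannot be told apart either.

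The arrays were alike in overall signal, with trimmed means of 199.3 to 200 and median signals of 68.7 to 78. A floor was placed at 16.4, the 25th percentile over the table, and it held 23.4% to 26.7% of the probe sets of an array. The ratio of the 3' to the 5' actin control probe sets was 1.3 to 1.34 at 0 h, 1.33 in wild type at 24 h, and 1.45 and 1.49 in doxycycline and mutant cells at 24 h. Its part in the differences described here was not tested. The spike-in controls read -0.18 below the mean of the arrays (log2) in wild type at 24 h and 0.13 and 0.23 above it in the other arrays of that time. With scaling to these controls the median difference between the wild-type change and the mean of the others moved from -0.03 to 0.38 over all genes, so higher and lower are used here relative to the bulk of the genes on each array. Under that scaling 35 of the 35 higher members stayed at least 2-fold higher, and 3 of the 26 lower members stayed at least 2-fold lower. All 11 genes of a list of myoblast and myotube markers passed the filter on low signal, among them Myod1, Myog and Des.

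Differences of this size between the arrays were common. The changes in doxycycline and mutant cells, which share the outcome, lay at least 2-fold apart in 125 genes, higher in doxycycline in 80 and in mutant in 45. The standard deviation over genes was 0.40 for that difference, against 0.44 for wild type minus doxycycline and 0.43 for wild type minus mutant. Taken singly, the wild-type change was at least 2-fold higher than the doxycycline change in 87 genes and lower in 81. Against the mutant change it was higher in 87 and lower in 66. The member rule asks for both differences at once, so its count is not alike to these. The wild-type change was the highest of the 3 by any amount in 1453 genes (30.1%), the lowest in 1880 (39%) and in between in 1489. Both differences of a gene use the same wild-type arrays, so that a wild-type value that stands apart enters both.

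**Figure D1:**
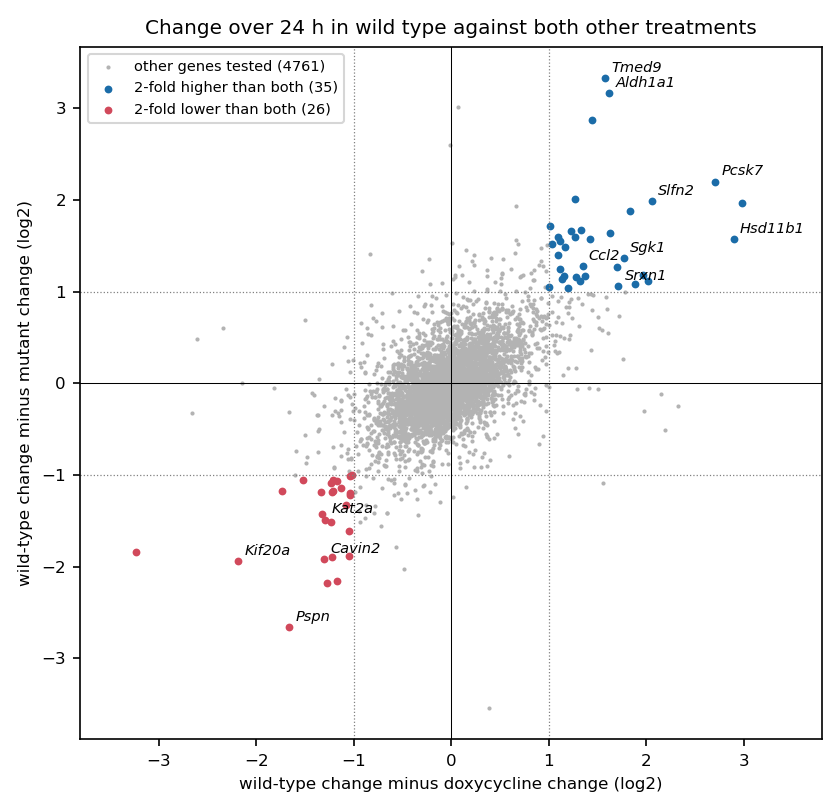
Each point is 1 of the 4822 genes tested, with the log2 change over 24 h in wild type minus that in doxycycline cells on the horizontal axis and minus that in mutant cells on the vertical axis, and dotted lines at 2-fold. The 35 genes higher in wild type lie at the upper right and the 26 lower ones at the lower left; the slope of the cloud includes the wild-type arrays that both axes share.

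In limma's test of outcome by time, which takes doxycycline and mutant cells as the 2 samples of the dying outcome and has 2 residual degrees of freedom, 0 of 6212 probe sets passed an adjusted p of 0.05 (Benjamini-Hochberg). An unadjusted p under 0.05 was found for 105 probe sets with the wild-type change higher (1.69%) and 92 with it lower (1.48%). The smallest adjusted p was 0.561. With treatment as a block, which compares each treatment's 24 h array with its own 0 h array and leaves 1 residual degree of freedom, limma called 37 probe sets higher and 16 lower. The only residual of that fit is the doxycycline change against the mutant change, and it reads the same differences as the rule, so it gives the members no separate support.

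The members took different courses. In 15 of the 35 higher genes the signal at least doubled in wild type and moved less than 2-fold in both other treatments. It also doubled in wild type alone in Lst1 and Tmed9. There doxycycline (Lst1) or mutant cells (Tmed9) read at least 2-fold lower at 24 h. In 7 others the wild-type signal moved less than 2-fold while both other treatments read at least 2-fold lower at 24 h than at 0 h. These 7 were Ccl2, Ccl7, Blnk, Sgk1, Slfn2, Tinagl1 and Pklr. In 11 of the 26 lower genes the wild-type signal alone was at least 2-fold lower at 24 h. The wild-type array stood at least 2-fold above both others at 24 h but not at 0 h in 19 of the 35 higher genes, and at least 2-fold below both at 24 h alone in 10 of the 26 lower genes. In 5 higher genes the wild-type array was instead at least 2-fold below both others at 0 h and not apart by that much at 24 h.

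**Figure D2:**
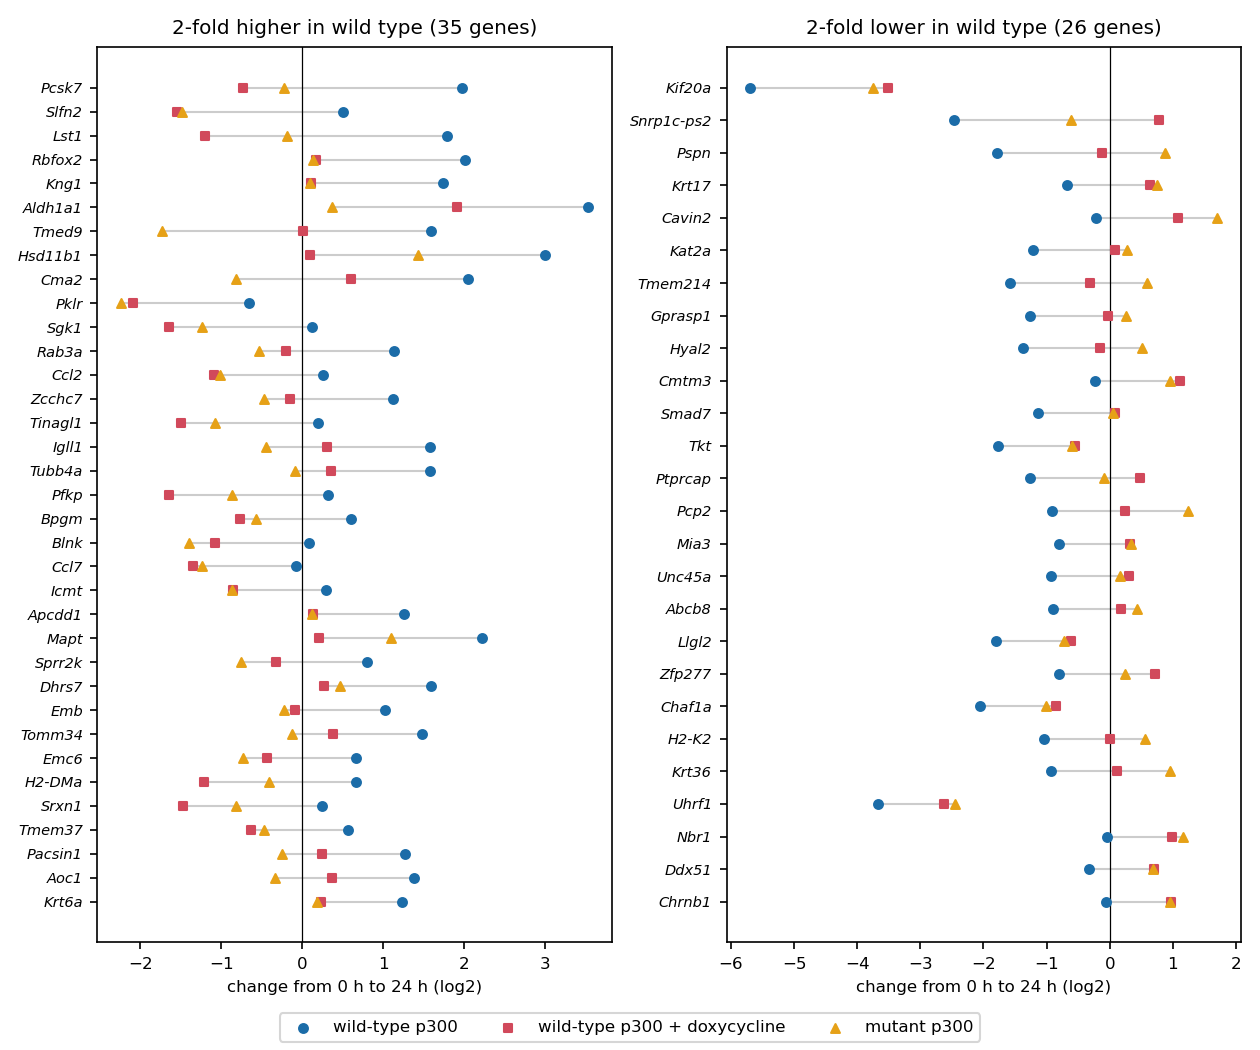
The log2 change from 0 h to 24 h is drawn for each of the 35 higher and 26 lower genes, with 1 symbol per treatment and a grey line over their range. Wild type lies at 1 end of every line, and its distance from 0 shows whether its own signal or that of the other treatments moved.

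A pair of chemokine genes stood out among the secreted members. Ccl2, the main monocyte attractant, read 1487 in wild type, 321.1 in doxycycline and 441.5 in mutant cells at 0 h, and 1773.7, 150.7 and 217.6 at 24 h. The wild-type signal was the highest at both times, and the gap widened as both other signals were lower at 24 h. The wild-type change was higher than that in doxycycline by 1.35 and than that in mutant by 1.28 (log2), with an interaction of 1.31 and a standard error of 0.38 and an adjusted p of 1 by limma. Ccl7, which lies next to Ccl2 among the protein-coding genes of the mouse genome and attracts the same cells, followed the same course. It read 296, 131 and 117.6 at 0 h and 280.4, 51.3 and 49.8 at 24 h, with differences of 1.27 and 1.16. Of the 22 chemokines and cytokines of the list 12 were bright enough to test, and the wild-type change was the highest in 8 of them, the lowest in 2 and in between in 2. The median interaction of the list lay 0.54 above that of all genes, and 0.3 above it without the 0 h doxycycline array. Cxcl5, a neutrophil attractant, had differences of 0.66 and 0.50 with its highest signals in doxycycline cells, 619.4 at 0 h and 344.9 at 24 h. Csf3, the granulocyte growth factor, had differences of -0.66 and -0.66. Slpi, a secreted inhibitor of leukocyte elastase, read 835.7, 180.8 and 336.5 at 0 h and 1159.6, 91.8 and 239.8 at 24 h. Its differences of 1.45 and 0.96 left it just outside the rule, and a second tested Slpi probe set gave 0.64 and 0.77.

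Enzymes of the oxidative stress response that NRF2 governs leaned to the higher side. The wild-type change was the highest in 16 of 25 tested genes of that list, the lowest in 5 and in between in 4, and the list's median interaction lay 0.23 above that of all genes. Srxn1, sulfiredoxin, which reduces overoxidised peroxiredoxins, read 529.3, 212 and 294.7 at 0 h and 627, 76.6 and 167.1 at 24 h, with differences of 1.71 and 1.06. Its wild-type signal was the highest at both times. A second Srxn1 probe set, with signals of 76.3 to 207.9, gave -0.06 and 0.65. Nqo1, a quinone reductase, read 1032, 815.1 and 913 at 0 h and 643.4, 247.9 and 293.5 at 24 h. All 3 treatments read lower at 24 h, wild type by the least, and the differences of 1.04 and 0.96 fell just short of the rule for the mutant. A second Nqo1 probe set gave 1.15 and 0.88. Gsto1, a glutathione transferase, read 1979.8, 1210.1 and 1366.5 at 0 h and 2441, 638.5 and 890.5 at 24 h, with differences of 1.22 and 0.92. At the other end Mgst1, a membrane-bound glutathione transferase, gave -0.28 and -0.15.

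Genes of glucocorticoid action included 2 members. Hsd11b1 regenerates active glucocorticoid inside cells. Its signal was 73.4, 43 and 18.8 at 0 h and 586, 46.1 and 50.6 at 24 h, so that only the wild-type array at 24 h was bright. Hsd11b1 passed the filter on mean signal only through that array, as the other 5 lay under its limit of 75.2. The differences were 2.90 and 1.57. Sgk1, a kinase that glucocorticoids and serum induce and that promotes survival in many cells, read 696.8, 449.7 and 588.5 at 0 h and 757.7, 143.6 and 249.1 at 24 h. The wild-type signal held while both others were lower, with differences of 1.77 and 1.36 and an interaction of 1.56 with a standard error of 0.44, and its adjusted p by limma was 1. Nr3c1, the glucocorticoid receptor, had differences of 0.67 and 1.01. Of the 14 tested genes of the list the wild-type change was the highest in 9, the lowest in 3 and in between in 2, and its median lay 0.25 above that of all genes. The 9 include Hsd11b1 and Sgk1, which the member rule itself selected. Among genes of retinoid metabolism Aldh1a1, which makes retinoic acid from retinaldehyde, read 40, 18.5 and 32.3 at 0 h and 463.7, 69.8 and 41.7 at 24 h. The wild-type signal at 24 h stood far above the other 5, with differences of 1.62 and 3.17. Those 5 lay under 75.2, so Aldh1a1, too, passed the filter only through that array. A second, dim Aldh1a1 probe set read 22.4 to 41.8 on all arrays and showed no such rise in signal. The wild-type change was the highest in 4 of the 7 tested genes of retinoid metabolism and receptors, Aldh1a1 among them.

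**Figure D3:**
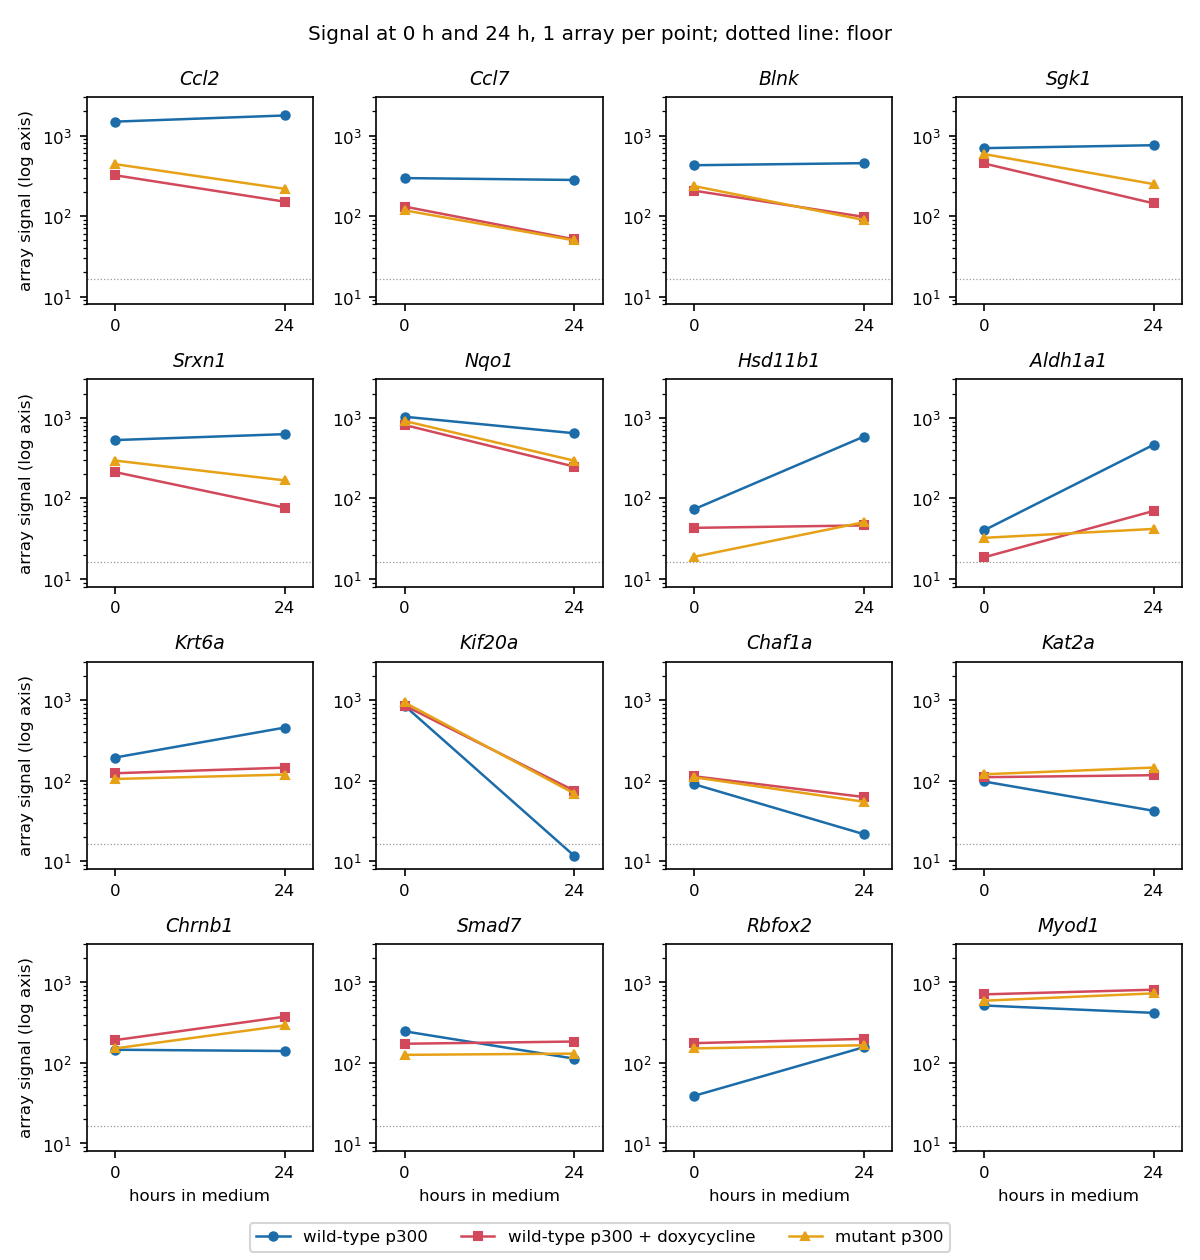
Array signal (log axis) at 0 h and 24 h is drawn for 16 genes, with 1 array per point and a dotted line at the floor of 16.4. Ccl2, Ccl7, Blnk, Sgk1 and Srxn1 held their level in wild type while both other treatments read lower at 24 h; Hsd11b1, Aldh1a1 and Krt6a, in the probe sets drawn, read higher at 24 h mainly in wild type, and Kif20a, Chaf1a and Kat2a read lowest in wild type at 24 h.

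Several members are best known from epidermis and other epithelia, and they did not all lie on the same side. Krt6a, a keratin induced in wounded epidermis, read 193.6, 123.6 and 104.9 at 0 h and 456.3, 145.1 and 119 at 24 h, with differences of 1.01 and 1.05, the smallest among the higher members. A second, dim Krt6a probe set read 40.4, 15.2 and 17.8 at 0 h and 134.8, 53.1 and 40.1 at 24 h, so that it was higher at 24 h in all 3 treatments, with differences of 0.04 and 0.57. Krt17, its usual companion in wounded skin, read 115.8, 84.7 and 68.1 at 0 h and 72.2, 131.9 and 114.3 at 24 h, with differences of -1.32 and -1.43, while a dim Krt17 probe set gave 0.39 and 0.39. Krt36, a hair keratin, was also lower, by -1.05 and -1.88. Tinagl1, a secreted matrix protein, read 147.7, 57.8 and 74.2 at 0 h and 169.1, 20.4 and 35.2 at 24 h and gave 1.70 and 1.27. Sprr2k, a protein of the cornified envelope whose probe set can detect related genes, gave 1.12 and 1.55. Of the 11 tested genes of stress keratins, cornified envelope and claudins the wild-type change was the highest in 6, the lowest in 4 and in between in 1. Anxa8, an annexin, read 715.9, 302.5 and 247.8 at 0 h and 959.5, 117.6 and 166.8 at 24 h, and its differences of 1.79 and 0.99 put it just outside the rule. The summed signal of 7 epithelial markers was 243.2 to 343.0 over the 6 arrays, highest in wild type at 24 h. Epcam lay at or under the floor on all 6 arrays. Cldn4, a claudin of tight junctions, read 12.2 in wild type at 0 h and 72.9 at 24 h, against 15.2 in doxycycline and 30.5 in mutant cells at 24 h. Krt8 read 6 and 45.9 in wild type, against 10.4 and 20 in the others at 24 h, and Krt7 read 8 and 27, against 7.7 and 7.8. These 3 markers were thus dim, with their highest signals in wild type at 24 h. Cdh1, the only one of the 7 bright enough to test, went the other way. It read 188.2, 230.8 and 142.7 at 0 h and 154.4, 206.5 and 183.9 at 24 h. Its differences were -0.13 and -0.65. Krt18 read 25.8 and 22 in wild type, against 26.9 and 19.9 in the others at 24 h. Krt19 read 38.8, 37.1 and 42.2 at 0 h and 4.5, 4 and 2.7 at 24 h. The part of epithelial cells in these differences was not tested.

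Some members are named for blood cells. Blnk, the adaptor of the B cell receptor, read 427.5, 206.3 and 235.3 at 0 h and 453.5, 97.5 and 89.2 at 24 h. Wild type was the highest at both times, with differences of 1.17 and 1.48. A second Blnk probe set gave 0.57 and 0.66. Igll1, the surrogate light chain of pre-B cells, read 86.7, 46.7 and 48.5 at 0 h and 258, 57.6 and 35.7 at 24 h, with differences of 1.27 and 2.02. Its mean signal passed the filter only through the wild-type array at 24 h. Slfn2, a schlafen protein that maintains quiescence in lymphocytes, read 130.7, 93.2 and 62.6 at 0 h and 185, 31.8 and 22.4 at 24 h. Its differences were 2.05 and 1.98, while a second, dim Slfn2 probe set gave 0.05 and 0.81. H2-DMa, which loads peptides on class II molecules, gave 1.88 and 1.09, while a dim H2-DMa probe set gave -0.06 and -0.13. Lst1, a leukocyte transcript, read 24.1, 128 and 111.9 at 0 h and 83.1, 55.8 and 98.4 at 24 h, and gave 2.98 and 1.97. Its wild-type signal was the lowest at 0 h and was under that of mutant cells at 24 h. Cma2, a mast cell protease, read 67, 82.1 and 79.6 at 0 h and 277.5, 124.9 and 45.1 at 24 h. Its probe set, too, can detect related genes. On the lower side Ptprcap, which binds the CD45 phosphatase, gave -1.73 and -1.17, and H2-K2, a class I gene whose probe set can detect related genes, gave -1.05 and -1.61.

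Of 21 markers of macrophages and leukocytes 19 were on the array, and 7 of these lay at or under the floor on all 6 arrays, among them Ptprc, Itgam, Lyz2, Tyrobp and Cd3e. The summed signal of the 19 was 1577.8, 1499 and 1340.4 at 0 h and 1851.9, 1266 and 1030 at 24 h. Without Blnk and Igll1 it was 1063.6, 1246 and 1056.6 at 0 h and 1140.4, 1110.9 and 905.1 at 24 h. Among the 7 tested markers the wild-type change was the highest in 5 and the lowest in 0. The 5 include Blnk and Igll1, which the member rule itself selected. In the list of interferon, schlafen and antigen presentation genes, which holds Slfn2, the wild-type change was the highest in 3 of 13 tested genes and the lowest in 6. There Irf7 gave -0.53 and -0.36 and H2-K1 gave -0.50 and -0.45. These counts leave out another 16 genes of the list that were under the filter on low signal, and those went both ways. Wild type read 6.2 at 0 h and 33 at 24 h for Ifit1, 63 and 128.8 for Ifit2 and 14.1 and 66.4 for Mx1. The others read 6.4 and 6.3, 55.3 and 32.7, and 1.7 and 13.3 at 24 h. Slfn1 read 39.6 and 14.9 in wild type, against 55.9 and 33.7 in the others at 24 h.

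The promoters of the members were searched for binding motifs, since p300 is recruited by factors bound there. The motifs were chosen after the values were seen, so the shares below are a description and not a test. The promoter table from RefSeq (GRCm38.p6) held 26 of the 35 higher and 18 of the 26 lower genes, and the 250 bases before each start site were searched on both strands. The AP-1 motif TGANTCA was found in 8 of the 26 higher genes (30.8%) and 0 of the 18 lower genes, against 239 of the 3939 tested genes with an entry (6.07%) and 7.82% of all genes of the table. The holders were Aldh1a1, Aoc1, H2-DMa, Sprr2k, Srxn1, Tinagl1, Tmem37 and Tomm34. Genes that differed by 1.5-fold to 2-fold from both other treatments held it in 6 of 79 cases where wild type was higher (7.59%) and in 4 of 72 where it was lower (5.56%). A gene was counted, in every set, where any of its windows held a match. Aldh1a1, Aoc1, H2-DMa, Tinagl1 and Tomm34 have 2 windows each in the table, for 2 start sites. In each of these genes the other window held 0 matches. For Aldh1a1 that other window begins at chr19:20601718, far from the matching one. The matching windows of 5 of the holders are shown, 5' to 3' on the strand of the gene, because they place the motif in genes of different function, with the AP-1 match in capitals.
Srxn1 (chr2:152105274-152105523, + strand): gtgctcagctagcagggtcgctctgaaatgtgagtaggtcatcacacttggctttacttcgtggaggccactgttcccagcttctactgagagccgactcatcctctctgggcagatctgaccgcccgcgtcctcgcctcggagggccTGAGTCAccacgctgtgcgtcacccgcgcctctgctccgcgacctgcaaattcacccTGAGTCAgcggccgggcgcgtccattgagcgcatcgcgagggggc
Tinagl1 (chr4:130175123-130175372, - strand): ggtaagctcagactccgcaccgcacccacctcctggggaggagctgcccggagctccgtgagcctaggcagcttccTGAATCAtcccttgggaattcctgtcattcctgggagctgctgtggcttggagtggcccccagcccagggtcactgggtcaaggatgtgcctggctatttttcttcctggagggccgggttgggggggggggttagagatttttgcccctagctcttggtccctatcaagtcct
Tmem37 (chr1:120073781-120074030, - strand): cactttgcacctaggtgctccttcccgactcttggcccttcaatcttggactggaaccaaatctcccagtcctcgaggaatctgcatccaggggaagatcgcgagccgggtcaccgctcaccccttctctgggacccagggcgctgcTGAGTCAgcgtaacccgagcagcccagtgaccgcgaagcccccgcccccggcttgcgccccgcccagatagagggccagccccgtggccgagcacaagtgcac
Sprr2k (chr3:92432332-92432581, + strand): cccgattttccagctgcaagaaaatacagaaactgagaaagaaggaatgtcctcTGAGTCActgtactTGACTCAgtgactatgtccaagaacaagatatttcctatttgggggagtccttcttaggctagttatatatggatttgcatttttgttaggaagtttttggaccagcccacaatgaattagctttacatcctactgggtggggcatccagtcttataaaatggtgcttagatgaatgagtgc
Aldh1a1 (chr19:20492333-20492582, + strand): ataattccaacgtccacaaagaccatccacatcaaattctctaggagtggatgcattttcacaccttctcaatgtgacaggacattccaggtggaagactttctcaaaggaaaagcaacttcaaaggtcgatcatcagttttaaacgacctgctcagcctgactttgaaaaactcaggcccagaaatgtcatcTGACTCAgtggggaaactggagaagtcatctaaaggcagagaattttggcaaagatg

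Srxn1 held matches starting 102 and 45 bases before its start site and Sprr2k 196 and 182 bases before. The single matches of Tinagl1, Tmem37 and Aldh1a1 started 174, 103 and 57 bases before. The antioxidant response core TGACNNNGC, which can share its first bases with an AP-1 match, was present in 15.4% of higher, 11.1% of lower and 13.8% of all tested genes. The CCAAT box (CCAAT) was present in 46.2%, 44.4% and 40.9%, and the cell cycle element TTTGAA in 19.2%, 5.56% and 12.8%. The muscle E-box CAGCTG, bound by MyoD, was present in 23.1%, 0% and 13.8%, and the kappaB motif in 3.85%, 11.1% and 5.28%. In genes that differed by 1.5-fold to 2-fold the order turned for 2 of these motifs, with the E-box in 16.5% of higher and 23.6% of lower genes and TTTGAA in 8.86% and 20.8%. A match describes the letters of these windows and not the binding of a factor. The AP-1 factors themselves leaned to neither side as a list, with the wild-type change the highest in 9 and the lowest in 7 of 23 tested genes of AP-1, EGR and immediate early factors. Among these Atf3, a stress-induced partner of AP-1 factors, gave 0.85 and 0.91, Ier3, an immediate early survival gene, 0.90 and 0.72, and Nr4a1, an immediate early nuclear receptor, -0.53 and -0.38.

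Genes of muscle leaned the other way. In the list of muscle structure and excitation-contraction coupling the wild-type change was the lowest in 17 of 27 tested genes, the highest in 2 and in between in 8, and the median interaction lay 0.27 below that of all genes. It lay 0.06 below without the 0 h mutant array or without the 24 h doxycycline array, and 0.44 below without the 24 h mutant array or without the 0 h doxycycline array. The median wild-type change of the list was 0.64, so its typical gene still read higher at 24 h in wild type. Chrnb1, the beta subunit of the muscle acetylcholine receptor, was the 2-fold member. It read 146, 192.1 and 151.6 at 0 h and 140.7, 375.7 and 292.4 at 24 h, flat in wild type and about doubled in both others, with differences of -1.02 and -1.0. Rapsn, which clusters that receptor, read 775.1, 869 and 800.4 at 0 h and 847.6, 1326.7 and 1332.7 at 24 h, and gave -0.48 and -0.61. Ryr1, the calcium release channel, gave -0.52 and -0.54. Mylpf, a fast myosin light chain, was an exception with 0.53 and 0.61. Differences of opposite or unequal size were found for Tnnt1, slow troponin T (0.53 and -0.32, with -0.32 and 0.50 in a second probe set), Myl1, a myosin light chain (-0.03 and -0.88), and Acta1, skeletal actin (-0.66 and -0.06).

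Myod1, the myogenic determination factor with which p300 cooperates, read 517.6, 711.5 and 593.6 at 0 h and 419.1, 813 and 732.1 at 24 h. Wild type was the lowest at both times, and the differences were -0.50 and -0.61. Myog, the differentiation factor, had nearly the same change in all treatments, with differences of -0.07 and -0.08. Cdh15, M-cadherin, gave -0.54 and -1.2, and Myf5 gave 0.51 and 0.44. Over all 15 tested myogenic regulators the wild-type change was the highest in 6, the lowest in 6 and in between in 3. Unc45a, a chaperone of myosin, was a lower member with -1.23 and -1.09. Cavin2, a protein of caveolae, read 110, 112.8 and 72.8 at 0 h and 94.8, 239.3 and 237.7 at 24 h, with differences of -1.3 and -1.92.

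**Figure D4:**
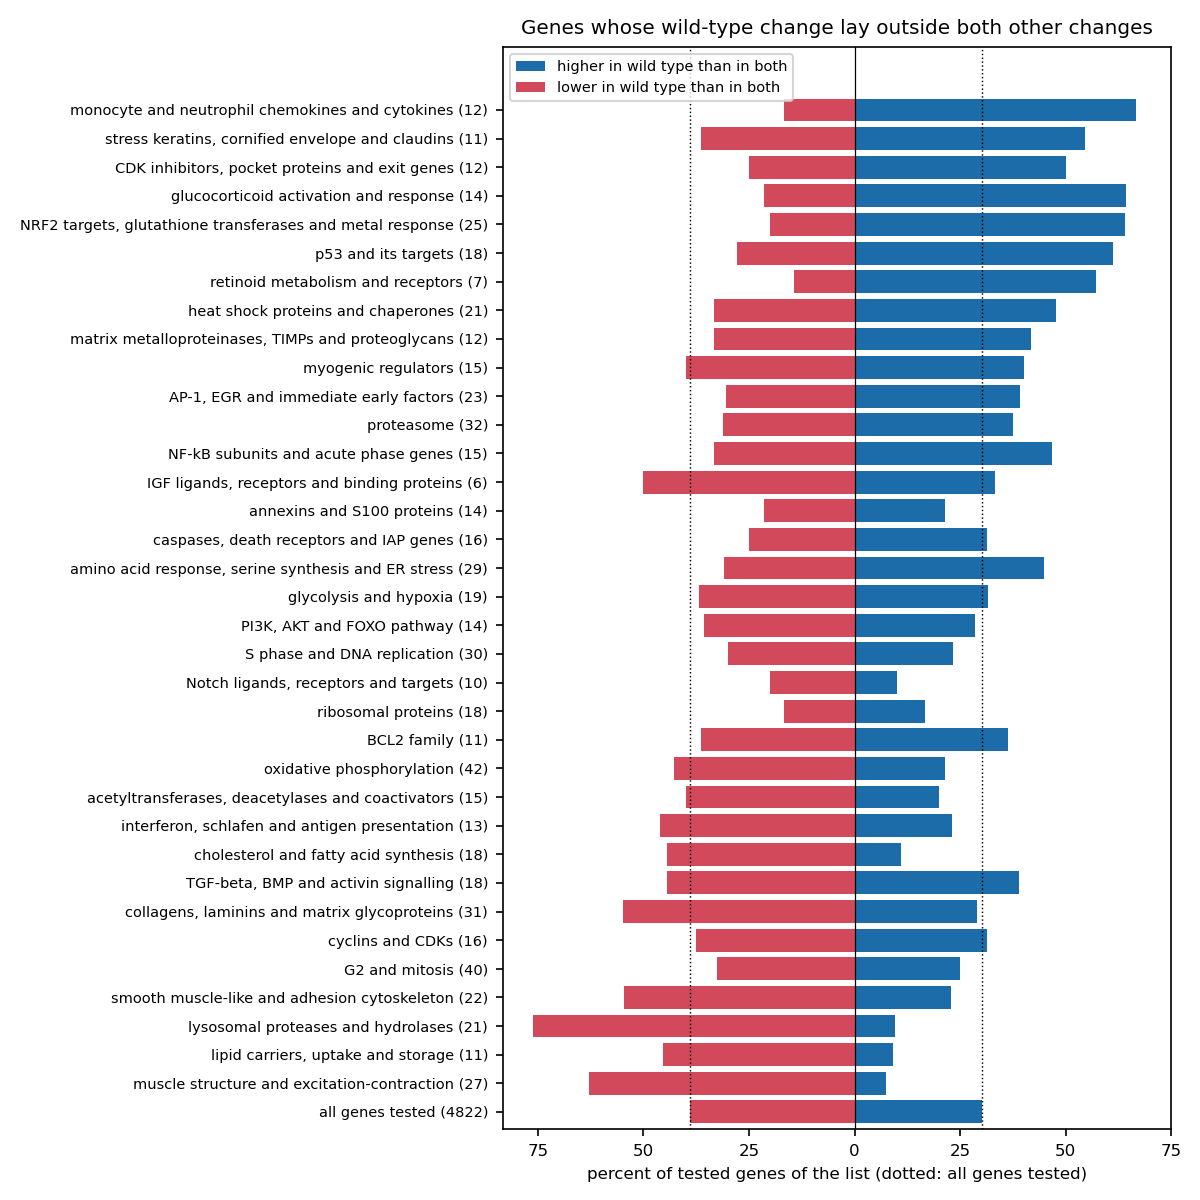
For each gene list with at least 5 tested genes, apart from the cell type marker lists, bars give the percent of tested genes whose wild-type change was higher (right) or lower (left) than both other changes by any amount, ordered by the list's median, with the number tested in brackets and dotted lines at the 30.1% and 39% of all genes. Among the lists drawn, the bars of chemokines, glucocorticoid and NRF2 genes lie far to the right (8 of 12, 9 of 14 and 16 of 25 genes) and those of lysosomal and muscle structure genes far to the left (16 of 21 and 17 of 27).

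Proliferation genes fell into separate cases. Kif20a, a kinesin of cytokinesis, read 852.4, 855.7 and 935.4 at 0 h and 11.6, 74.9 and 69.2 at 24 h. All treatments started alike, and the wild-type signal at 24 h was under the floor, so the differences of -2.19 and -1.94 are bounds. Its adjusted p by limma was 0.561, the smallest of the test. A second Kif20a probe set gave -0.90 and -0.27. Uhrf1, which maintains DNA methylation in S phase, read 291.4, 223.9 and 349.7 at 0 h and 23, 36.4 and 64.3 at 24 h, with differences of -1.04 and -1.22. Chaf1a, a subunit of the chromatin assembly factor, read 90.2, 113.2 and 110.1 at 0 h and 21.6, 62.6 and 54.7 at 24 h, with differences of -1.21 and -1.05. Mcm5, a subunit of the replicative helicase, gave -1.07 and -0.77. Cdt1, which loads that helicase, went against these with 0.71 and 1.17, and a second Cdt1 probe set with 1.37 and 1.2 did so too. As lists, S phase genes had the wild-type change highest in 7 and lowest in 9 of 30 tested genes, and G2 and mitosis genes in 10 and 13 of 40. Mki67, the proliferation marker, read 442.5, 573.5 and 606.6 at 0 h and 6.8, 44.3 and 19 at 24 h. Wild type was under the floor at 24 h, so its differences of -1.06 and 0.24 are upper bounds, and they differ in sign. A second Mki67 probe set gave -0.94 and -0.23.

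Genes that hold cells out of the cycle included no 2-fold member. Among 12 tested inhibitors of cyclin-dependent kinases, pocket proteins and exit genes the wild-type change was the highest in 6 and the lowest in 3. The median difference of the list was 0.26 from doxycycline and 0.03 from mutant, and the median interaction, 0.26 above that of all genes, lay 0.09 above it without the 24 h doxycycline array. Examples were Rb1, the retinoblastoma protein, with 0.53 and 0.61 and Gas1, a growth arrest gene, with -0.32 and -0.51. Among 18 tested genes of p53 and its targets it was the highest in 11 and the lowest in 5. The median interaction of that list lay 0.22 above that of all genes, and 0.14 to 0.26 above it over 14 alternatives. Mdm2, the p53 ubiquitin ligase and target, gave 0.73 and 0.47, and Ei24 gave 0.55 and 0.65. Cdkn1a, the p21 inhibitor of both lists, gave 0.41 and 0.00, and 0.64 and 0.29 in a second probe set.

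Genes that carry out or restrain apoptosis, the outcome named for these treatments, showed no lean. In the BCL2 family the wild-type change was the highest in 4 and the lowest in 4 of 11 tested genes, with Bcl2, the founding survival gene, at 0.31 and 0.36 (-0.71 and -0.25 in a second tested probe set) and Bok, a death-promoting relative, at -0.73 and -0.33. Bcl2l11, the BIM death gene, gave 0.18 and 0.04, and 0.51 and 0.93 in a second probe set. In caspases, death receptors and IAP genes it was the highest in 5 and the lowest in 4 of 16. Tradd, the adaptor of the TNF receptor, gave 1.51 and 0.60, and Birc2, an inhibitor of apoptosis, gave -0.78 and -0.68. Among IGF ligands, receptors and binding proteins it was the highest in 2 and the lowest in 3 of 6. Igf2, an autocrine survival factor of myoblasts, gave 0.38 and 0.41. No gene of these lists was a 2-fold member.

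Regulators of chromatin and signalling gave further single members. Kat2a, an acetyltransferase of the SAGA complex that acts beside p300 in many promoters, read 97.7, 110.4 and 120 at 0 h and 42.2, 116.9 and 145.4 at 24 h. Only the wild-type array at 24 h was low, with differences of -1.29 and -1.49. Of 15 tested acetyltransferases, deacetylases and coactivators the wild-type change was the highest in 3 and the lowest in 6, and Hdac5, a deacetylase that represses muscle genes, gave -0.61 and -0.65. Crebbp, the close relative of p300, gave -0.21 and 0.16. Smad7, the inhibitor of TGF-beta signalling, read 247.4, 173.3 and 126.1 at 0 h and 113.1, 184.6 and 130.7 at 24 h. Wild type was the highest at 0 h and the lowest at 24 h, with differences of -1.22 and -1.18. Bmpr1a, a BMP receptor, gave -1.48 and -0.87, and Ltbp1, which holds latent TGF-beta in the matrix, 0.99 and 0.76. The list of TGF-beta, BMP and activin signalling was split, with 7 higher and 8 lower of 18.

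Lysosomal proteases and hydrolases had the wild-type change lowest in 16 of 21 tested genes and highest in 2, with a median 0.18 below that of all genes and no 2-fold member. Ctsa gave -0.49 and -0.51, Hexa -0.44 and -0.41 and Man2b1 -0.57 and -0.44 (0.43 and 0.28 in a second probe set), and Ctsz, another cathepsin, gave 0.24 and 0.22. Nbr1, a receptor that brings cargo to autophagosomes, was a lower member outside that list. It read 667.5, 600.3 and 465.7 at 0 h and 646.4, 1190.3 and 1036.1 at 24 h, flat in wild type and about doubled in both others, with differences of -1.03 and -1.2.

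Enzymes of sugar metabolism lay on both sides. Pfkp, a phosphofructokinase, read 145.6, 79.3 and 169 at 0 h and 181.5, 25.4 and 92.8 at 24 h, with differences of 1.96 and 1.18, and a second Pfkp probe set gave 1.74 and 0.96. Pklr, the liver and red cell pyruvate kinase, read lower at 24 h in all treatments and least so in wild type, with differences of 1.42 and 1.58. Bpgm, which makes bisphosphoglycerate, gave 1.37 and 1.17. Tkt, the transketolase of the pentose phosphate pathway, read 421.5, 342.3 and 288.7 at 0 h and 123.2, 232.5 and 190.8 at 24 h. It had the highest signal in wild type at 0 h and the lowest at 24 h, with differences of -1.22 and -1.18. In the list of glycolysis and hypoxia genes as a whole the wild-type change was the highest in 6 and the lowest in 7 of 19.

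Dhrs7, a short-chain dehydrogenase of the endoplasmic reticulum, was among the brightest members. It read 434.4, 405.1 and 365.8 at 0 h and 1303.1, 487.6 and 506.8 at 24 h, alike at 0 h and apart at 24 h, with differences of 1.32 and 1.11. Tmem37, a membrane protein related to calcium channel subunits, read 880.8, 712.8 and 735.4 at 0 h and 1307.9, 461.8 and 532.3 at 24 h, with differences of 1.2 and 1.04. Kng1, kininogen, read 158.6, 118.5 and 90.7 at 0 h and 528.5, 127.8 and 97.1 at 24 h, with differences of 1.63 and 1.64. In these 3 genes the wild-type array at 24 h was the highest of the 6. The same held for Aoc1, a diamine oxidase, which gave 1.01 and 1.72, for Tubb4a, a beta-tubulin, with 1.22 and 1.66, for Emb, embigin, with 1.11 and 1.24, and for Apcdd1, a Wnt inhibitor, with 1.13 and 1.14. Mapt, the microtubule protein tau, gave 2.01 and 1.12, but its doxycycline signal at 0 h was under the floor and one of its other probe sets gave -0.88 and 0.88.

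The 5 higher genes whose gap lay at 0 h were Pcsk7, Lst1, Rbfox2, Rab3a and Tomm34. Pcsk7, a proprotein convertase, read 23.9, 105.7 and 106 at 0 h and 94.1, 63.9 and 90.8 at 24 h. Rbfox2, a splicing regulator of muscle and nerve, read 39.1, 176.3 and 151.5 at 0 h and 157.2, 199.1 and 166.1 at 24 h. In both genes the single low value was that of wild type at 0 h, and at 24 h the treatments lay within 2-fold of each other. A second Rbfox2 probe set gave -0.81 and 0.42. Rab3a, a GTPase of secretory vesicles, gave 1.33 and 1.67, and Tomm34, a cochaperone of mitochondrial import, gave 1.10 and 1.60. Gprasp1, which sorts receptors to lysosomes, was the mirror case among the lower genes, with 178.5, 88.1 and 67.1 at 0 h and 74.2, 86.1 and 79.9 at 24 h.

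The other higher members were Tmed9, a cargo receptor of the early secretory pathway (1.58 and 3.33), Zcchc7, an RNA surveillance factor (1.27 and 1.60, but -0.11 and -0.02 in a dim probe set), Icmt, which methylates prenylated proteins (1.16 and 1.17), Emc6, of the membrane insertion complex of the endoplasmic reticulum (1.09 and 1.40), and Pacsin1, an endocytic protein (1.03 and 1.52). In Tmed9 the treatments already differed at 0 h, with 146, 231.4 and 426.6, and their order was reversed at 24 h, with 440.8, 233.9 and 128.5. The other lower members were Pspn, the neurotrophic factor persephin (-1.66 and -2.66), Hyal2, a hyaluronidase (-1.23 and -1.89), Llgl2, a cell polarity protein (-1.18 and -1.07), Mia3, which exports collagen from the endoplasmic reticulum (-1.13 and -1.15), Abcb8, a mitochondrial transporter (-1.08 and -1.33), and Ddx51, an RNA helicase (-1.03 and -1.02). With them came Tmem214 (-1.27 and -2.18, but 0.24 and 0.44 in a second tested probe set), Cmtm3 (-1.33 and -1.18), Pcp2 (-1.17 and -2.16) and Zfp277 (-1.52 and -1.06, but 0.64 and 0.61 in a dim probe set). Snrp1c-ps2 is a pseudogene whose probe set can detect its parent gene, and its -3.23 and -1.84 are uncertain for that reason.

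In genes of the matrix and of the adhesion cytoskeleton the wild-type change was more often the lowest than the highest. The same held for all genes tested, with 39% lowest and 30.1% highest. The list medians lay 0.07 (matrix) and 0.13 (cytoskeleton) below that of all genes. The wild-type change was the lowest in 17 and the highest in 9 of 31 tested genes of collagens, laminins and matrix glycoproteins, with Fn1, fibronectin, at -0.47 and -0.39 and Fbln2, fibulin, at 0.92 and 0.93. It was the lowest in 12 and the highest in 5 of 22 tested genes of smooth muscle-like and adhesion cytoskeleton, with Tagln, transgelin, at -0.54 and -0.47. Among lipid carriers, uptake and storage genes it was the lowest in 5 and the highest in 1 of 11. There the probe set used for Apoe, apolipoprotein E, was under the floor in all treatments at 0 h and read 109.2, 290.4 and 119.6 at 24 h. A dim Apoe probe set read 12.5, 19.3 and 24.4 at 0 h and 12, 14.7 and 23.1 at 24 h. Of the housekeeping lists, 12 of 32 proteasome genes were higher and 10 lower, and 9 and 18 of 42 genes of oxidative phosphorylation. Of 18 ribosomal protein genes 3 were higher, 3 lower and 12 in between. Among genes of amino acid response, serine synthesis and stress of the endoplasmic reticulum the wild-type change was the highest in 13 and the lowest in 9 of 29, with Psat1, a serine synthesis enzyme, at 1.21 and 0.83.

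The members were dimmer than the genes at large, with a median mean signal of 136.3 over the 41 higher and 117.8 over the 34 lower probe sets, against 248.8 over all tested. Another tested probe set existed for 7 of the 61 genes. Of these 8 probe sets 4 had the wild-type change on the same side of both others and 0 reached 2-fold from both. A probe set under the filter on low signal existed for 16 of the genes. Of these 17 probe sets 5 had both differences on the side of the member, 4 had both on the opposite side and 5 were at the floor throughout. The rule was also met by 14 probe sets that do not stand for a gene here, because they have no symbol (4) or because a brighter probe set of the gene was used (10). Their brighter partners had differences of 0.04 and 0.14 for Psmg3, -0.00 and -0.13 for Eif4ebp2, 0.18 and 0.09 for Pnmt, -0.00 and 0.13 for C1qtnf1, -0.05 and 0.10 for Slk and 0.19 and 0.21 for Gstm5. They were larger for Cdt1, given above, for Pcgf2 (-0.71 and -0.68) and for H2-K1 (-0.50 and -0.45). For Tpsb2 the brighter probe set gave -1.15 and -0.36, opposite to the 2.87 and 3.46 of the one that met the rule. The strongest signal among all members was that of a probe set without a symbol, with 5477.2, 4817.6 and 4236.6 at 0 h and 6326.2, 2106.4 and 2411 at 24 h. At the threshold, Krt6a and Aoc1 lay just inside on the higher side and Anxa8 and AU020206 (0.98 and 1.51) just outside, and Chrnb1 and Ddx51 lay just inside on the lower side and Cr1l (-1.60 and -0.998) and H3c14 (-0.98 and -1.18) just outside.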

How the data were processed

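Biotin-labelled total RNA was measured on 6 arrays, 1 for each treatment and time. The deposited table holds linear array signal, an intensity for each of 12488 probe sets. MAS5 is named per the submitters' processing notes, with no version. The 66 control probe sets were left out of tests. Values under the 25th percentile (16.4) were raised to that floor before log2. Probe sets with a mean signal of at least 75.2, the median, were tested. These were 6212, of which 5620 had 1 symbol from the platform annotation (4822 genes), and the brightest stood for a gene.

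The interaction of outcome and time was fitted with limma 3.58.1 (lmFit, eBayes with trend, 2-sided) in R 4.3.3, with 1 mean per outcome and time. The residual (2 degrees of freedom) comes from doxycycline against mutant, and the single wild-type arrays are taken to vary as these do. The script was tested on simulated data. The labels do not say which arrays are separate cultures, so a p-value reflects the spread among these arrays alone, and their number limits the precision. Named are the members; the genes nearest the threshold; in each list the 3 genes furthest on the side with more genes and the first on the other side; and genes such as Myod1 and Crebbp chosen for their role. Members, the 41 lists, the motifs and the alternatives were chosen with earlier results of these data known, and the motifs after the values were seen. Tables were handled in Python 3.11.15 with pandas 2.3.3. The alternatives were other floors, filters, scalings and fold limits, a treatment block and leaving out each doxycycline or mutant array.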

Additional observations from a re-analysis of the deposited data

Results flagged for a closer look

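Among the members and the other named genes, 9 had a wild-type signal that moved one way over 24 h and both others the opposite way. Each moved by at least 1.3-fold. The remaining genes were not searched for this, so 9 is no count over all genes tested. The opposite movement itself was not tested in any of the 9. The wild-type change minus the mean of the other changes (log2) was 2.02 in Slfn2, 1.48 in H2-DMa, 1.39 in Anxa8, 1.27 in Bpgm, 1.24 in Emc6, 1.24 in AU020206, 1.21 in Slpi and 1.12 in Tmem37, with wild type higher at 24 h than at 0 h. It was -1.37 in Krt17, where wild type was lower at 24 h and both others higher.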

How the results depend on the processing

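Of the 61 member genes, 25 (22 higher and 3 lower) stayed at least 2-fold from both treatments under every setting of floor, scaling and filter that gave them a value, among them Ccl2, Sgk1, Blnk, Hsd11b1, Aldh1a1 and Kif20a. The counts of 41 higher and 34 lower probe sets became 27 and 16 with log2(value + 25th percentile), 181 and 6 with scaling to spike-in controls, 226 and 158 without the filter on dim probe sets, 9 and 5 with signals at or above the 75th percentile, 185 and 148 at 1.5-fold and 8 and 5 at 3-fold. They were 114 and 114 against doxycycline alone and 128 and 85 against mutant alone, and 20 lower with plain _at probe sets only. The 0 probe sets called by limma in the interaction became 1 higher with spike-in scaling and 37 higher and 16 lower with the treatment block. Without the filter 152 and 93 were called; 222 of these 245 had all 4 doxycycline and mutant values at the floor, and 1 was among the probe sets tested. Leaving out 1 array, which leaves 1 residual degree of freedom, gave 2 to 37 higher and 2 to 6 lower calls. The counts were 37 and 6 without the 24 h mutant array, 7 and 4 without the 0 h doxycycline array, 4 and 2 without the 24 h doxycycline array and 2 and 4 without the 0 h mutant array. A wild-type array cannot be left out, since it is the only one of its outcome and time. Of 35 lists with at least 5 tested genes, apart from the cell type markers, 7 had a median interaction at least 0.15 above that of all genes and 3 at least 0.15 below; the latter ranged from 1 (without the 24 h doxycycline array) to 7 (without the 24 h mutant array). Over 14 alternatives the list medians relative to all genes were 0.3 to 0.74 for chemokines, 0.22 to 0.29 for NRF2 genes, 0.18 to 0.31 for glucocorticoid genes, 0.09 to 0.32 for CDK inhibitors, -0.44 to -0.06 for muscle structure and -0.21 to -0.16 for lysosomal genes. The treatment block pairs the 24 h array of each treatment with its own 0 h array. The labels carry no replicate numbers, and with 1 array for each treatment and time no pairing of replicates was possible. Where no reason is given, the cause was not tested. With 1 array for each treatment and time, no value here has a replicate error.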
